A study of Rattus norvegicus with 4 samples.

Results

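The genes described here form the ATF4 arm of the integrated stress response, and they were read in rat NR8383 macrophages exposed to zinc iron oxide. The members were the 10 genes Atf4, Atf3, Ddit3, Trib3, Asns, Chac1, Sesn2, Ppp1r15a, Ddit4 and Vldlr, chosen by name as genes of the pathway, at a time when earlier results of these data were already known. Gene probes were assigned to them through the RefSeq accession on the array, which gave 12 of 21109 named probes and 10 of 16581 named genes. All 10 had a value on every array. NR8383 is a line started from lung lavage of a normal rat, kept as a partly adherent and partly floating culture, and is used as a model of the alveolar macrophage. The cells, described as having undergone 20 passages, received zinc iron oxide particles (a zinc ferrite, ZnFe2O4, coded NRCWE021) at 17 µg/mL, and RNA was taken after 4 h. The design pairs these cells with unexposed controls, 4 biological replicates each. Arrays of unexposed cells were not analysed here. The 4 arrays of exposed cells thus give the level of each gene under exposure and its spread between replicates, and no gene is said to respond to the particle.

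In the integrated stress response, kinases that sense haem shortage or oxidants, double-stranded RNA, unfolded proteins in the endoplasmic reticulum or missing amino acids phosphorylate the initiation factor eIF2. General translation then slows, while the messenger of the transcription factor ATF4 is translated more, through upstream reading frames in its leader. ATF4 binds C/EBP-ATF response elements and switches on amino acid synthesis and transport, glutathione turnover, growth restraint, and, with ATF3 and CHOP, feedback and cell death genes. Because ATF4 is controlled at translation, the level of its messenger does not report the amount of the protein.

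Promoter windows were available in the RefSeq table (build GRCr8) for 9 of the 10 members, each running from 250 bases before to 50 bases after the gene's start. Atf3 was the gene without an entry. The C/EBP-ATF element was searched as TGATGNAA on both strands. It was present in the windows of Chac1 and Trib3, 2 of 9, and in 3.98% of all 33469 windows. The stricter form TTGCATCA, also on both strands and contained in the former motif, was present in 1 member, Chac1, and in 0.795% of windows. After the sequences had been read, the palindromic cyclic AMP element TGACGTCA was searched too, and was present in Ppp1r15a among the members and in 1.83% of windows. The 3 windows that hold a match are shown on the strand of the gene, 5′ to 3′, with the match in capitals. The Chac1 window is chr3:126795881-126796180 on the plus strand and its match begins 167 bases before the start. The Trib3 window is chr3:161275484-161275783 on the minus strand, with the match 21 bases before the start. The Ppp1r15a window is chr1:105139547-105139846 on the minus strand, with the match 66 bases before the start. A match is a description of the letters and not evidence of binding.
Chac1: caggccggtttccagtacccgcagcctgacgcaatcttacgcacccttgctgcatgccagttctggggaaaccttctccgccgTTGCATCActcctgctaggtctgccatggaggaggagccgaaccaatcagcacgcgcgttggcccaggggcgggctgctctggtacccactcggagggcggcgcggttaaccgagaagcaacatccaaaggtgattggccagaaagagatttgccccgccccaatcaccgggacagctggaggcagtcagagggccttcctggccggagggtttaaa
Trib3: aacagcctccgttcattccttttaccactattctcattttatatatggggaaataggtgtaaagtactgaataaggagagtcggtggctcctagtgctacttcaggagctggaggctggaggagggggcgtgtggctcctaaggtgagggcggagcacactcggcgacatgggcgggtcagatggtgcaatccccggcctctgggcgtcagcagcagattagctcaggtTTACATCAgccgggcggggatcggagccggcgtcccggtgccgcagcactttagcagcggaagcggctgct
Ppp1r15a: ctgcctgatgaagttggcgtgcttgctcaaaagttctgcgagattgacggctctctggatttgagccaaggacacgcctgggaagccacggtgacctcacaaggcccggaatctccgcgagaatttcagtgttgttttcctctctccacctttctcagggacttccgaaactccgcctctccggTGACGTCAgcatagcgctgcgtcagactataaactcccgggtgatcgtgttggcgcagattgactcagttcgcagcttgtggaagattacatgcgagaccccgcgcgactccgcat

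The arrays differed in their floor, and this bears on every dim member. The median processed signal over gene spots, in intensity units after the scanner's own background subtraction, was 13.5, 542, 133 and 7.37 on replicates 1 to 4. The dimmest of 10 control RNAs added to each sample (spike-ins) averaged 3.83, 537, 109 and 3.92 on the same arrays. Replicates 2 and 3 therefore stood apart from replicates 1 and 4 before any gene was considered, and results are given on all arrays and on replicates 1 and 4. The median negative control spot rose less, at 3.454, 22.996, 12.885 and 3.335 on replicates 1 to 4. On replicates 2 and 3 it lay far below the dimmest spike-in. The raised floor named below is thus that of gene spots and the dimmest spike-in, and its cause was not tested. A gene is called detected below when the scanner software flagged its signal as well above the background of the array. Of 12 measured genes that mark the alveolar macrophage, 11 were detected on replicates 1 and 4, with the scavenger receptor Marco as the exception. The counts for other lineages were 1 of 8 epithelial genes, 2 of 7 T and NK cell genes, 1 of 3 B cell genes, 2 of 6 neutrophil and mast cell genes, 3 of 5 endothelial genes and 1 of 6 fibroblast and smooth muscle genes. Of all named genes, 46% were detected on both of these arrays. The epithelial gene Epcam had signals of 3.14 and 3.08 on replicates 1 and 4, where the median negative control spot had 3.45 and 3.34. Other markers, chosen after their values were seen, were not at the floor. The endothelial gene Vwf had signals of 3649, 2951, 2246 and 2032 on replicates 1 to 4. On replicates 1 and 4 the epithelial gene Foxj1 had 122 and 48.8, and Nkg7, of the T and NK cell genes, had 320 and 213.

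Of the 10 members, 9 were detected on both replicate 1 and replicate 4, where 46% of all named genes were. The same number was detected on all 4 arrays, against 42.5% of named genes. Vldlr was the exception in both counts. A second threshold was the signal of the dimmest spike-in on the same array plus 3 SD of its spots. Its value was 9.05, 1119, 380 and 8.38 intensity units on replicates 1 to 4. It passed fewer named genes than the flag on replicates 2 and 3, and more on replicates 1 and 4. It was passed on all arrays by 5 members, Atf4, Atf3, Trib3, Asns and Ppp1r15a, and by 15.4% of named genes. On replicates 1 and 4 alone it was passed by 9 members and by 51.9% of named genes. On single arrays the threshold was passed by 10, 6, 6 and 9 members on replicates 1 to 4. Of named genes it was passed by 60.4%, 22.9%, 20.4% and 53.5% on these arrays. It was not passed by Chac1 and Ddit4 on replicates 2 and 3, by Sesn2 on replicate 2, by Ddit3 on replicate 3, or by Vldlr on replicates 2, 3 and 4.

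**Figure D1:**
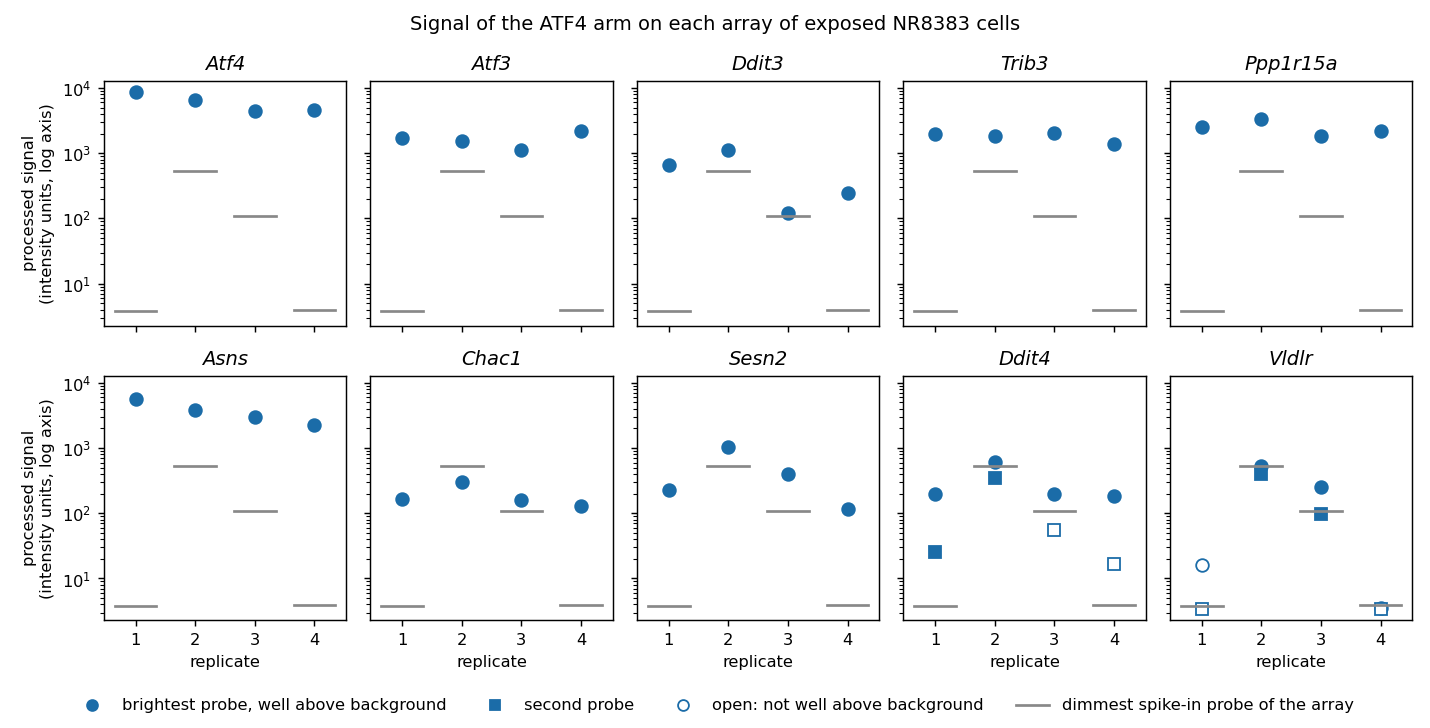
Processed signal (intensity units, log axis) of each member on replicates 1 to 4. Circles are the brightest probe of a gene and squares its other probe, open symbols are not detected, and grey bars mark the dimmest spike-in probe of each array. Atf4, Atf3, Trib3, Ppp1r15a and Asns lie clear of the grey bar on all 4 arrays, while Vldlr is open on replicates 1 and 4.

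Atf4, the transcription factor that gives the arm its name, had processed signals of 8647, 6639, 4496 and 4669 on replicates 1 to 4. It was read by 1 probe printed in 10 spots, the most of any member. On replicate 1 the 9 usable spots ran from 8087 through a median of 8598 to 9787, and on replicate 4 the 10 spots ran from 4092 through 4466 to 5841. The ranges of replicate 1 and replicate 4 did not overlap, so the gap between these arrays was larger than the error of a spot. It was close to the gap between the arrays as a whole. The level used below is the log2 signal minus the 75th percentile of all probes on the log2 scale. As a signal, this percentile was 88.7, 851, 220 and 45.2 on replicates 1 to 4. On replicates 2 and 3 it lay below the spike-in thresholds of 1119 and 380. The level of Atf4 was then 6.61, 2.96, 4.35 and 6.69 on replicates 1 to 4, a mean of 5.15 ± 1.82 (SD, n = 4). Its rank hardly moved, at percentile 97.6, 97.8, 97.7 and 97.6 among all probes of these arrays. With quantile normalization the SD of its level was 0.11.

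Atf3, an ATF4-induced factor of the same bZIP class that can repress its targets, had signals of 1691, 1561, 1130 and 2204 on replicates 1 to 4. Its 2 spots agreed closely on each array, with an SD of 0.03 to 0.06 log2 units. It was brightest on replicate 4, the array on which the other 8 detected members were all dimmer than on replicate 1. Ddit3 encodes CHOP, the bZIP factor tied to cell death under prolonged stress. Its single spot had signals of 660, 1121, 122 and 247. On replicate 3 it lay just above the dimmest spike-in, and the ratio of its highest to its lowest signal was 9.18, the widest among the 9 members detected on all arrays. Trib3, a pseudokinase induced by ATF4 and CHOP that restrains both ATF4 and AKT, had signals of 1972, 1864, 2013 and 1385. The ratio of 1.45 was the narrowest of these 9 before scaling, while the SD of its level was 1.70 log2 units when scaled on all probes and 0.53 when scaled on detected probes.

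**Figure D2:**
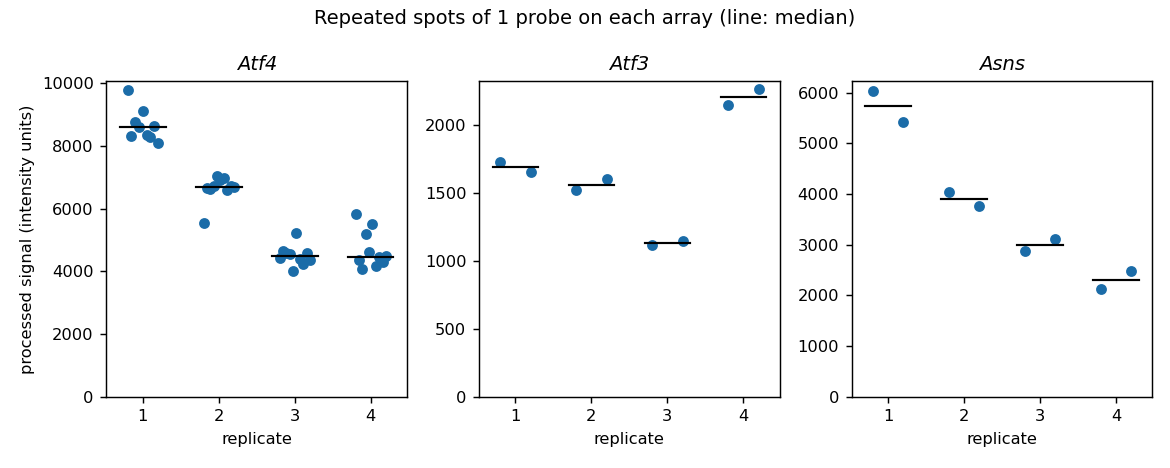
Processed signal (intensity units) of each usable spot of the Atf4, Atf3 and Asns probes on replicates 1 to 4, with the median as a line. Spots of 1 array lie close together for Atf3, while those of Atf4 on replicate 4 run from 4092 to 5841. Atf3 is highest on replicate 4 at 2144 and 2265, while Asns is lowest there at 2121 and 2480.

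Feedback on eIF2 is represented by Ppp1r15a, which encodes GADD34, the subunit that directs a phosphatase to phosphorylated eIF2 and restores translation. It had signals of 2497, 3307, 1845 and 2160 on replicates 1 to 4, and all 4 lay above the spike-in threshold. Its level averaged 3.86 ± 1.64 (SD, n = 4). The metabolic targets were Asns, the enzyme that makes asparagine, and Chac1, which degrades glutathione. Asns had signals of 5723, 3903, 2993 and 2293, and its level averaged 4.41 ± 1.77. Chac1 had signals of 168, 304, 158 and 128, and its level averaged 0.12 ± 1.35. On replicate 2 Chac1 was flagged as detected while the dimmest spike-in, at 537, was brighter, and the spike-in threshold was passed on replicates 1 and 4 only.

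The brakes on growth were Sesn2 and Ddit4, both of which inhibit mTORC1, the kinase complex that drives growth when nutrients are present. Sesn2 had signals of 228, 1055, 399 and 118 on replicates 1 to 4, so that both arrays with a raised floor were the higher ones. Ddit4, also called REDD1, was read by 2 probes that disagreed. The brighter one, A_42_P605985, had signals of 194, 615, 198 and 183 and was detected on all arrays. The other, A_44_P556895, had signals of 25.7, 348, 55.9 and 16.6 and was detected on replicates 1 and 2 only. Sesn2 and Ddit4 did not pass the spike-in threshold on every array.

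Vldlr encodes the very-low-density lipoprotein receptor, which takes up lipoproteins and is an ATF4 target in mouse cells under endoplasmic reticulum stress. Its brighter probe, A_42_P801903, had signals of 15.9, 539, 251 and 3.52 on replicates 1 to 4. Its other probe, A_44_P214922, had signals of 3.37, 398, 96.9 and 3.44. Both probes were detected on the arrays with a raised floor and on neither of the others. On replicate 4 both lay near the median negative control, and on replicate 2 both were close to or below the median gene spot of 542, so no level is given for Vldlr. A messenger below the floor of these arrays is not shown to be absent.

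The spread between replicates depended on how the arrays were scaled. With the 75th percentile of all probes, the SD over 4 arrays had a median of 1.70 log2 units among the 9 members and 1.55 among the 6923 genes whose brightest probe was detected on all arrays. With the 75th percentile of the probes detected on all arrays, the medians were 0.53 among the members and 0.43 among the genes. With the 3 brightest spike-in probes they were 0.51 among the members and 0.70 among the genes. The order of the members changed as well. Sesn2 had the smallest SD by the scaling on all probes, 0.51, and was at 1.36 on the spike-in scale and 1.17 on the scale of detected probes. Atf3 had the largest by the scaling on all probes, 2.08, and was at 0.51 on the spike-in scale. Ddit3 was at 1.76, 0.90 and 1.44 by all probes, detected probes and spike-ins. In RNA from a whole culture, fewer cells with a messenger and less of it per cell cannot be told apart.

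**Figure D3:**
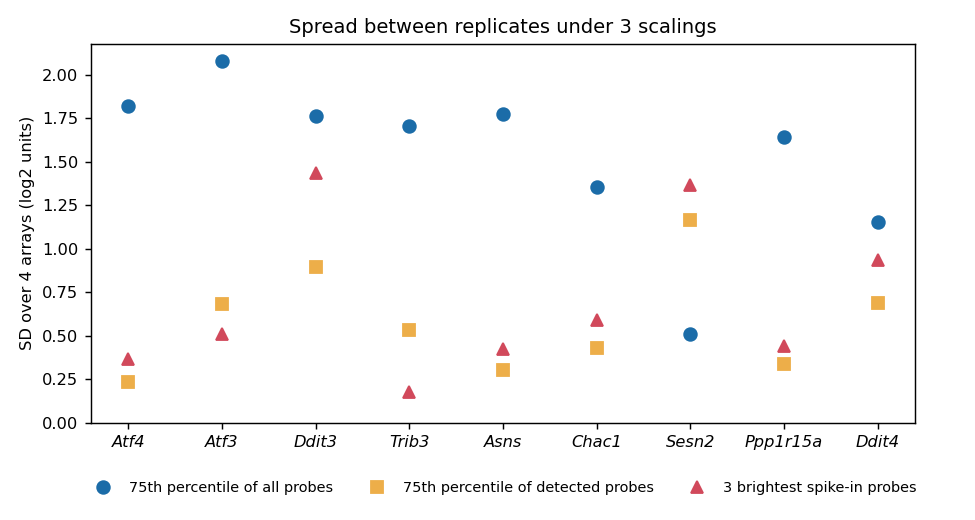
SD over 4 arrays (log2 units) of the level of each member detected on all arrays, under 3 scalings. Most members drop to between 0.18 and 0.68 when detected probes or bright spike-ins set the scale. Ddit3 and Ddit4 drop to 0.90 and 0.69 with detected probes and to 1.44 and 0.94 with spike-ins. Sesn2 rises from 0.51 to 1.17 and 1.36.

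Replicates 1 and 4 share a low floor and allow a closer comparison, although each is 1 array and no test is possible. Over 7554 genes whose brightest probe was detected on both, the level on replicate 1 minus that on replicate 4 had a median of -0.01 and a median absolute size of 0.21 log2 units. Over the 9 members the median was -0.46 and the median absolute size 0.46. The difference was above 0 for 2 of 9 members, against 48.7% of genes. It was below -0.5 for 4 of 9, namely Atf3, Ddit4, Ppp1r15a and Chac1, against 8.06% of genes, and above 0.5 for 0 of 9, against 7.11%. These counts moved with the scaling. Below -0.5 stood only Atf3 under spike-in scaling, against 0.821% of genes, and under normexp background correction, against 0.755%. Under quantile normalization and in the deposited value table there were 3, without Chac1, against 2.75% and 2.14%. The members above 0 were 5 of 9 under spike-in scaling and under normexp, where most of all genes were above 0 as well. The median over the members was then 0.06 and 0.08, against 0.51 and 0.26 over all genes. Relative to the median of all genes, the count below -0.5 was 4 under spike-in scaling and normexp, against 7.61% and 6.69% of genes. It was 3 under quantile normalization and in the deposited value table, against 2.79% and 6.71%.

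Atf3 was the extreme, with a level of 4.25 on replicate 1 and 5.61 on replicate 4. The difference was -1.35, the SD between its own spots was 0.04 and 0.06 on these arrays, and 16 of the 7554 genes had a lower one. Ddit4 differed by -0.88 and Ppp1r15a by -0.76, with 110 and 188 genes lower. The value for Ddit4 is that of its brighter probe. Its other probe, not detected on replicate 4, differed by -0.34. With all probes of a gene averaged, Ddit4 differed by -0.61, with 5.77% of genes lower. Chac1 differed by -0.58 and Trib3 by -0.46. Atf4 itself differed by -0.08 and Sesn2 by -0.03, inside the usual range of genes. Ddit3 and Asns differed the other way, by 0.45 and 0.35, with 666 and 1027 genes higher. For the Atf4 messenger the value was 0.44 by spike-in scaling, 0.36 by normexp and 0.22 in the deposited value table. Spike-in scaling adds a constant to an array, so the differences relative to the median of all genes were -1.34 for Atf3 and 0.36 for Asns by either scaling. Of the members, 6 have a single spot behind the value, so their differences carry an unmeasured spot error.

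**Figure D4:**
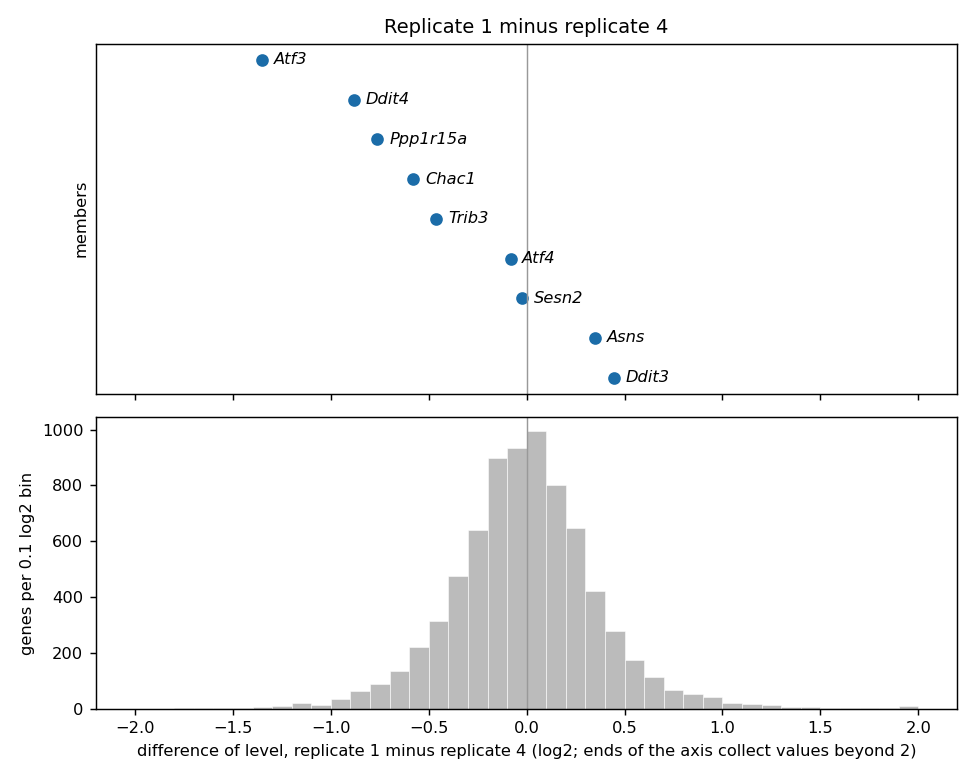
Level on replicate 1 minus level on replicate 4 (log2). The upper panel shows the 9 members detected on both arrays, and the lower panel counts all 7554 such genes in bins of 0.1. Atf3 at -1.35 lies in the left tail, Atf4 and Sesn2 lie near 0, and Asns and Ddit3 lie to the right.

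On the pair with a raised floor the same members were not arranged alike. The level on replicate 2 minus that on replicate 3 had a median of -0.82 over 6923 genes and -1.11 over the 9 members. Ddit3 differed by 1.25, higher than 99.5% of genes. Trib3 differed by -2.06, with 1.04% of genes lower. Atf3 differed by -1.49, with 17.1% of genes lower. The floor differed between these arrays too, with the dimmest spike-in at 537 and 109, and its part in these differences was not tested.

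The kinases that start the response were all detected, 4 of 4 on every array by the flag. The spike-in threshold was passed by 4 of 4 on replicates 1 and 4, against 51.9% of named genes. It was passed on all 4 arrays together by 0 of 4, against 15.4% of named genes. Eif2ak1, the haem-regulated kinase HRI, had signals of 1037, 852, 485 and 398 on replicates 1 to 4. Eif2ak2, the double-stranded RNA sensor PKR, had signals of 88.1 on replicate 1 and 60.8 on replicate 4. Eif2ak3, the endoplasmic reticulum kinase PERK, had 125 and 85.3, and Eif2ak4, the amino acid sensor GCN2, had 81.7 and 38.3. Their differences between replicates 1 and 4 lay between -0.44 and 0.41. The subunits of eIF2 and of its exchange factor eIF2B were detected on all arrays in 8 of 8 cases, with Eif2s1, the subunit that is phosphorylated, at 3225, 2440, 924 and 2355. On replicates 1 and 4, Eif2s2 had signals of 2134 and 1145, Eif2s3 118 and 58.7, and Eif2b1 308 and 142.

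Factors that pair with or resemble ATF4 were detected on replicates 1 and 4 in 10 of 12 cases. Cebpb, a C/EBP factor that binds with ATF4, had signals of 8728, 5476, 5979 and 4388. Atf5, which is controlled at translation like ATF4, had 297, 168, 204 and 161, and Jdp2 had 1067, 774, 549 and 554. The exceptions were Cebpg and Junb, each detected on replicates 1 and 2. Of the paralogues of the members, 4 of 6 were detected on replicates 1 and 4 and 3 of 6 on all arrays. Ppp1r15b, the constitutive relative of GADD34, had signals of 465 and 271 on replicates 1 and 4. Trib1 had 71.7 and 46.4. Sesn3 and Trib2, like Vldlr, were missed on both replicate 1 and replicate 4.

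Among further ATF4 targets, known mostly from mouse and human cells, amino acid synthesis and one-carbon genes were detected on replicates 1 and 4 in 8 of 11 cases. Phgdh and Psat1, the enzymes that open serine synthesis, had signals of 10317 and 5474 on replicate 1 and 4656 and 3338 on replicate 4. Psph, the last enzyme of that path, had 256 and 151, and Shmt2, which passes serine carbon to folate in mitochondria, had 1795 and 840. Not detected on both were Cth and Cbs, of transsulfuration, and Gpt2. Amino acid transporters were detected on these arrays in 5 of 8 cases. They included Slc7a11 and Slc3a2, the chains of the cystine importer, at 359 and 2857 on replicate 1 and 228 and 1671 on replicate 4. Slc7a5, a leucine importer, had 113 and 36.8. Slc7a3 was not detected on any array.

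The tRNA synthetases were detected on replicates 1 and 4 in 11 of 12 cases, with Cars1 as the exception. On replicates 1 and 4, Aars1 was at 3225 and 1426, Sars1 at 1099 and 651, Gars1 at 12960 and 6881, and Wars1 at 4169 and 1889. Secreted and other targets were detected in 5 of 9 cases. Gdf15, a stress cytokine, had signals of 4768, 2547, 2199 and 2749 on replicates 1 to 4. Fgf21, Stc2, Vegfa and Atg5 were not detected on both of these arrays. Of the death effectors tied to CHOP, 4 of 5 were detected, with Bbc3, which encodes PUMA, at 906 and 457 on replicates 1 and 4, and Pmaip1, which encodes NOXA, as the exception. Bcl2l11, which encodes BIM, had 112 and 55.5, and Ero1a, an oxidase of the endoplasmic reticulum, had 432 and 257. The XBP1 and ATF6 arms of the unfolded protein response were detected in 9 of 10 cases, with the chaperones Hspa5 at 3580 and 1886 and Hsp90b1 at 822 and 77.9, and the factor Xbp1 at 1299 and 534. The exception there was Ern1, the sensor upstream of XBP1 splicing. In each of the 10 lists the share detected on replicates 1 and 4 was above the 46% of all named genes.

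**Figure D5:**
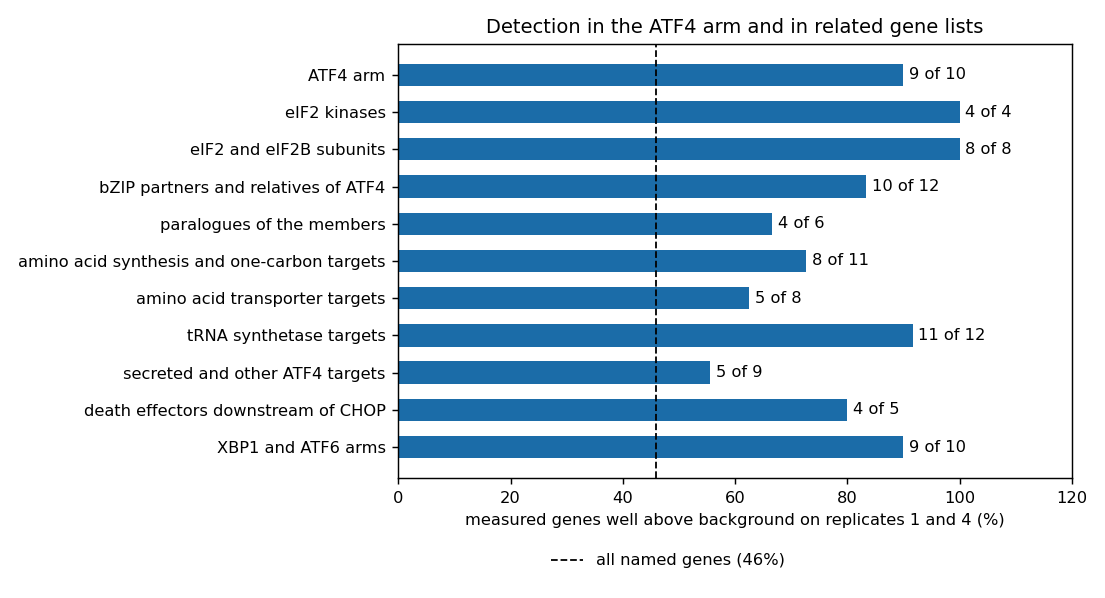
Share of measured genes detected on both replicate 1 and replicate 4 (%) for the ATF4 arm and 10 related lists, with counts beside the bars and all named genes as a dashed line at 46%. Shares run from 5 of 9 for secreted and other targets to all of the eIF2 kinases and of the eIF2 and eIF2B subunits.

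The same difference between replicates 1 and 4, by the scaling on all probes, was taken over these lists. The median was -0.15 for the 4 kinases, -0.03 for the 8 eIF2 and eIF2B subunits, 0.16 for 8 amino acid synthesis genes, -0.20 for 5 transporters and -0.06 for 11 tRNA synthetases. It was below -0.5 in 0 of 4 kinases, 1 of 8 eIF2 and eIF2B subunits, 2 of 10 bZIP factors, 0 of 4 paralogues, 0 of 8 synthesis genes, 1 of 5 transporters, 0 of 11 tRNA synthetases, 1 of 5 secreted and other targets, 1 of 4 death effectors and 1 of 9 genes of the XBP1 and ATF6 arms, beside 8.06% of all genes. Slc38a2, a transporter of neutral amino acids, was among those below it at -0.72. Gadd45a, a growth arrest gene, was at -0.63, and Jun, a partner of ATF3 in AP-1, was at -0.96. These 3 genes were chosen after their values were seen.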

How the data were processed

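RNA of 4 biological replicates of exposed cells was measured on 1-colour (Cy3) arrays that lay on 1 slide. The authors deposited intensity files of Agilent Feature Extraction 11.0.1.1. Per the file headers, its processed signal is corrected for background and for trends across the slide surface. No normalization between arrays is recorded. The deposited value table equals the median spot intensity on all 62976 spots of each array and was used as an alternative.

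Control spots and spots marked as outliers were left out. The log2 values of repeated spots were averaged. Of the probes, 213 lacked a usable spot on some array and were dropped, which left 16526 genes. The 75th percentile of each array was subtracted. A probe was detected if at least 50% of its spots carried the well-above-background flag, and a gene if any probe was. Levels refer to the probe of highest mean signal. Probes were named by accession through the RefSeq table of GRCr8. The older build named in the array design was not used for coordinates.

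The members and lists were chosen with earlier results of these data known. The text names all 10 members, the first 4 measured genes of each list, and exceptions chosen after their values were seen. With 1 group, no test was run, and the number of arrays limits precision. Alternatives were another detection flag, the brightest probe alone, outlier spots kept, normexp with an offset of 50 (limma 3.58.1) on median spot signals, quantile normalization, other scalings, all probes averaged, no filter on dim probes, and each replicate left out. Subtracting the median of detected genes, replicates 1 and 4 alone, and the motif TGACGTCA were added after seeing the data. The scaling code was run on simulated data as a check of the code only. That run does not show that the scaling suits arrays whose floors differ, as these do.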

Additional observations from a re-analysis of the deposited data

How the results depend on the processing

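The count of members detected on all 4 arrays was 9 under each of the 7 alternatives run, and that on replicates 1 and 4 was 9 under each of 3. The count past the spike-in threshold was 5 or 6 when each replicate was left out. The median SD of the members, 1.70 as reported, was 0.547 with quantile normalization, against 0.861 over all genes. It was 0.534 with the percentile over detected probes, against 0.427, and 0.508 with spike-in scaling, against 0.699. After subtracting the median of detected genes it was 0.574, against 0.602. With replicates 1 and 4 alone it was 0.326, against 0.143. Without 1 replicate it ran from 1.21 to 1.91. Whether the members or all genes had the larger median thus changed with the setting. With the looser detection flag 5 of 6 paralogues were detected on all arrays in place of 3. The stricter motif was found in 1 member. Relative to the median of all genes, the difference between replicates 1 and 4 ran from -1.35 to -1.15 for Atf3, from -0.80 to -0.65 for Ppp1r15a, from -0.88 to -0.57 for Ddit4 from -0.57 to -0.37 for Chac1, from -0.45 to -0.17 for Trib3, from -0.04 to -0.01 for Sesn2, from 0.35 to 0.52 for Asns and from 0.32 to 0.77 for Ddit3 over 8 alternatives. It changed sign for Atf4, from -0.10 to 0.10. Levels without 1 replicate ran from 4.64 to 5.88 for Atf4 and from 2.50 to 4.07 for Atf3. The count of members below -0.5 on replicate 1 minus replicate 4, 4 as reported, was 1 with normexp and 1 with spike-in scaling, and 3 or 4 under the other 6 settings. The causes were not tested. The spike-in threshold was not passed by Chac1 and Ddit4 on replicates 2 and 3, Sesn2 on replicate 2, Ddit3 on replicate 3 and Vldlr on replicates 2, 3 and 4. By the flag, Vldlr was not detected on replicates 1 and 4.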

Other observations

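A few genes of the related lists, noticed after their values were seen, stood far apart between replicates 1 and 4. Hsp90b1, the endoplasmic reticulum chaperone GRP94, had signals of 822, 2305, 108 and 77.9 on replicates 1 to 4, and its level on replicate 1 minus that on replicate 4 was 2.43. The other 8 detected genes of the XBP1 and ATF6 list ran from -0.88 for Dnajb9 to 0.40 for Pdia4. Cebpg, a partner of ATF4, had signals of 114, 390, 18.1 and 4.96 and was not detected on replicates 3 and 4. Fgf21, a secreted ATF4 target, had signals of 30.9, 342, 82.9 and 2.89 and was detected on every array but replicate 4.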
